A study of Equus caballus with 19 samples.

Results

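Elastic fibre and microfibril genes are described here as 10 genes chosen by name, with earlier results of these data known: ELN, FBN1, FBN2, FBLN1, FBLN2, FBLN5, EFEMP1, EFEMP2, MFAP4 and MFAP5. They are 10 of the 29196 gene names in the deposited tables, and all 10 passed the filter on low values in both batches. The cells were tenocytes, the resident fibroblasts of tendon, grown from the superficial digital flexor tendon of adult horses and labelled wild type (WT). Each tenocyte line came from its own donor horse, was kept in a 3D gel of bovine type I collagen and was harvested at day 14. In the first batch, 5 lines (numbered 1 to 5 here) were each sequenced as an unstimulated control and with 1 nM IL-1β, an inflammatory cytokine, which gave 10 libraries. In the second batch, 3 further lines (6 to 8) were each sequenced unstimulated, under the same dose of IL-1β, and under that dose together with IL1Ra at 100 ng/ml, the natural antagonist that occupies the IL-1 receptor without signalling, which gave 9 libraries. All groups shared the bovine collagen gel and serum-containing medium, so the model holds neither the blood vessels nor the layered matrix of tendon.

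Elastic fibres give tissues recoil. They have a core of elastin laid on a scaffold of microfibrils, thin filaments built mainly of fibrillins, and the fibulins and microfibril-associated glycoproteins guide elastin onto that scaffold before lysyl oxidases cross-link it. In tendons such as the equine superficial digital flexor, which stretch and store energy at each stride, elastic fibres lie around the cells and concentrate in the matrix between the collagen fascicles. Fibrillin microfibrils also hold latent transforming growth factor beta (TGF-β) complexes, through latent TGF-β binding proteins, so the fibrillins also have a role in growth factor storage.

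The values are normalised counts, meaning read counts that the authors scaled within each batch. First-batch libraries sum to between 43393903 and 49197980 of them and second-batch libraries to between 24964149 and 34602014. Since 1 read was worth about 0.862 to 1.21 normalised counts, values of a few counts rest on a few reads. The worth of 1 read was not exactly the same for all genes of a library. In the control of line 6, for example, COL2A1 was at 0.964 and KRT18 at 1.01. Genes differ in length and no lengths were applied here, so levels were compared between samples and not between genes. The 10 genes together took 0.332% to 0.594% of the counts in first-batch controls and 0.150% to 0.257% with IL-1β. That share mostly follows the genes with the most counts. In the control of line 1, FBN1 held 88868 and FBLN2 65832 of the 202578 counts, and ELN 638. The share was not compared with that of other gene sets. Of the tenocyte markers, SCX, a transcription factor of tendon, ranged from 9.69 to 4720 over the 19 libraries, and TNMD, a marker of mature tenocytes, stayed at or under 1.00 in all of them. PTPRC, the gene for the pan-leukocyte antigen CD45, and CDH5, an endothelial marker, were under 10 in every library. Not all leukocyte markers were this low: CD14 ranged from 0 to 2811 and CD68 from 56.4 to 1769. Of the endothelial markers, PECAM1 reached 73.2 and VWF 44.6. In bulk RNA, fewer cells of a type and less RNA per cell cannot be told apart.

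With IL-1β, 7 of the 10 genes were lower in the first batch and none was higher by the test. ELN, the elastin gene, fell most, and FBLN1, FBLN5, MFAP4 and MFAP5 fell by 13.4-fold to 22.3-fold. FBLN2 and EFEMP2 fell by smaller steps, FBN1 sat just under the fold limit, and FBN2 and EFEMP1 did not pass the test. Differential expression (DE) required an adjusted p below 0.05 together with a log2-fold change of at least 1 in either direction (limma on log2(normalised count + 1), Benjamini-Hochberg adjustment over 14719 genes). By that rule 7.9% of all genes tested were DE and lower, and 12.8% were DE in either direction. The median log2-fold change was −2.65 over the 10 genes and −0.0034 over all genes tested. Genes lower with IL-1β in every line numbered 8 of 10, against 25% of all genes tested. The control and IL-1β libraries did not overlap for 7 of 10 genes, all lower, against 10.2% of all genes tested in that direction. Since the 10 genes were chosen with earlier results known, these shares are descriptions.

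ELN encodes tropoelastin, the soluble monomer of the elastic core. Its normalised counts in the controls of lines 1 to 5 were 638, 888, 711, 4962 and 4734, and with IL-1β they were 10.6, 30.7, 4.57, 327 and 118. Lines 4 and 5 were high and lines 1 to 3 low in both conditions, and every IL-1β library was under every control library. ELN fell by 5.37 on the log2 scale (SE 1.11, adjusted p = 0.00551), which is 41.2-fold on the log2(count + 1) scale and ranks 22 from the lowest of 14719 changes. The level left with IL-1β ranged from 0.642% of control in line 3 to 6.59% in line 4.

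The fibrillins form the microfibril backbone. FBN1, the main fibrillin of adult tissue, was at 88868, 64939, 75310, 134906 and 145066 in controls and 55024, 35476, 33226, 71490 and 67497 with IL-1β. It was lower in 5 of 5 lines, yet the groups overlapped, because IL-1β libraries of lines 4 and 5 stood above the lowest control. The log2-fold change was −0.95 (SE 0.30, adjusted p = 0.0384), so the adjusted p passed and the fold limit did not. FBN2, the fibrillin best known from development, was at 3727, 1638, 728, 1065 and 1983 in controls and 944, 546, 60.8, 1221 and 1127 with IL-1β. It was lower in 4 of 5 lines, with line 4 slightly higher. Its log2-fold change was −1.55 (SE 0.78, adjusted p = 0.169), whereas a fit that adds the line as a block, and so compares each line with its own control, gave an adjusted p of 0.0411 and called it DE. With that block 8 of the 10 genes were DE and lower, against 10.2% of all genes tested.

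Of the long fibulins, FBLN1 encodes fibulin-1, a glycoprotein of basement membranes and of the elastic fibre core. Its controls were 21341, 10734, 25642, 28305 and 21046, and its IL-1β values were 711, 1205, 639, 1828 and 1462. Both groups were tight beside the gap between them. FBLN1 fell by 4.24 on the log2 scale (SE 0.34, adjusted p = 3.31e-05). FBLN2, for fibulin-2, its closest relative among the members, was at 65832, 47091, 45878, 41206 and 54402 in controls and 32026, 19718, 20831, 18160 and 28970 with IL-1β. It fell by 1.11 (SE 0.19, adjusted p = 0.00229), also without overlap. FBLN1 changed by more than FBLN2 in all 8 lines of both batches, with differences of −4.19 to −0.76 log2 units within a line, which are given as a description and were not tested.

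Of the short fibulins, FBLN5 encodes fibulin-5, which binds tropoelastin and cell-surface integrins and is required for elastic fibre assembly. Its values were low, 189, 49.4, 195, 100 and 200 in controls and 1.26, 3.36, 6.18, 5.92 and 13.2 with IL-1β. No IL-1β library came near a control library. FBLN5 fell by 4.48 (SE 0.55, adjusted p = 0.000359), a size that depends on the added 1 count, since line 1 with IL-1β was under 3 counts. EFEMP2, for fibulin-4, which brings lysyl oxidase to tropoelastin, was at 16671, 17090, 39899, 28204 and 27868 in controls and 5357, 9679, 11220, 11153 and 11744 with IL-1β. It fell by 1.37 (SE 0.28, adjusted p = 0.00563).

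EFEMP1 encodes fibulin-3, another short fibulin of elastic connective tissue, and was the exception in the family. It was at 337, 216, 829, 524 and 846 in controls and 674, 452, 286, 629 and 1332 with IL-1β. IL-1β libraries were higher in 4 of 5 lines and lower in line 3, and the groups overlapped widely. The log2-fold change was 0.29 (SE 0.47, 95% confidence interval −0.74 to 1.32, adjusted p = 0.684), an interval that covers changes in both directions.

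The microfibril-associated glycoproteins bind to fibrillin microfibrils, and MFAP4 also binds tropoelastin. MFAP4 was at 571, 451, 1871, 2150 and 2679 in controls and 16.9, 79.8, 84.2, 271 and 82.2 with IL-1β. The lowest control was above the highest IL-1β library. MFAP4 fell by 3.99 (SE 0.72, adjusted p = 0.00278). MFAP5, which encodes the glycoprotein MAGP-2, was at 4405, 4023, 8608, 4309 and 4232 in controls and 91.1, 437, 993, 683 and 233 with IL-1β. It fell by 3.75 (SE 0.56, adjusted p = 0.00105), with line 3 high in both conditions.

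**Figure D1:**
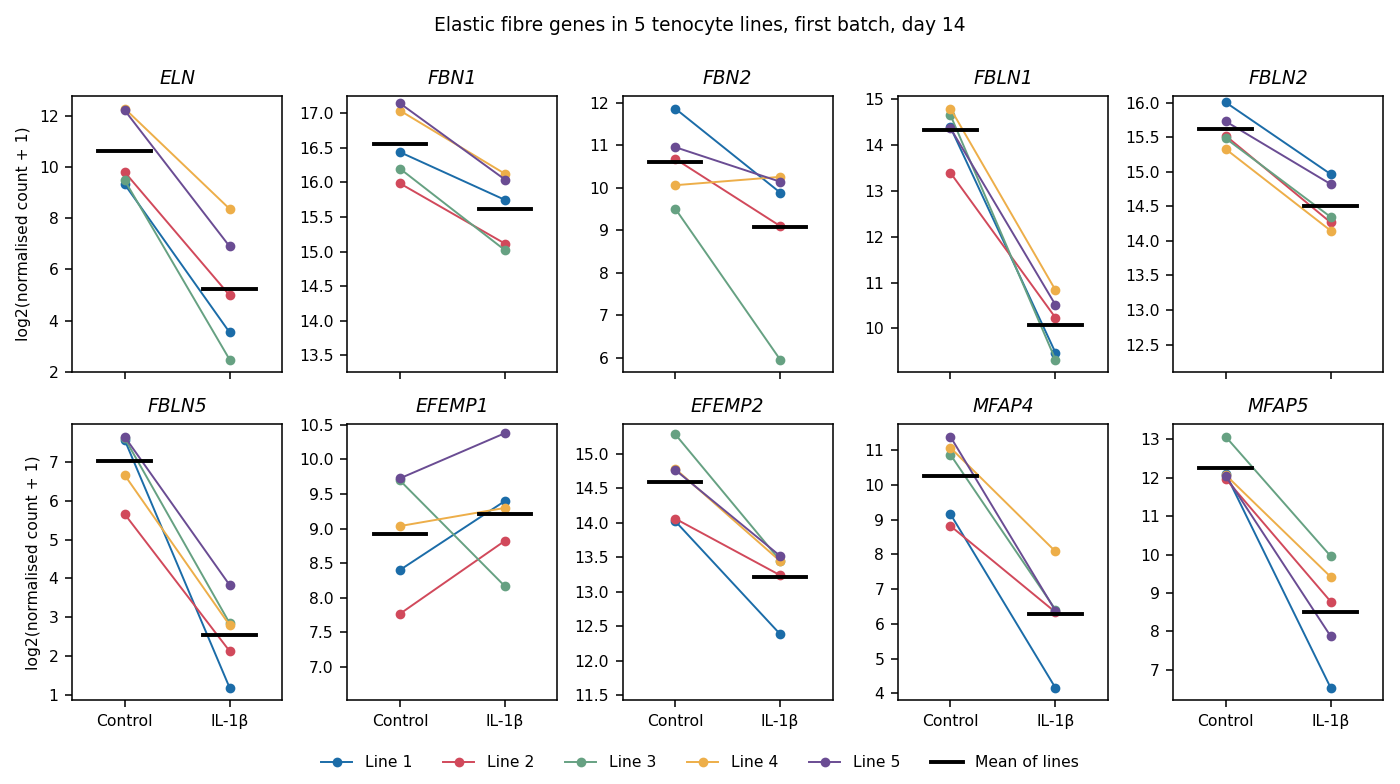
Log2(normalised count + 1) of each gene in the 5 first-batch lines (y axis, scaled separately for each gene), in control and IL-1β libraries (x axis), with a coloured line joining the libraries of 1 tenocyte line and a black bar at the mean of 5 lines. All 5 lines slope down for 8 genes, FBN2 is higher with IL-1β in line 4, and EFEMP1 is higher in 4 lines and lower in line 3.

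The lines differed among themselves before any treatment, and the size of that spread was not the same for all genes. Among first-batch controls, ELN spread over 7.78-fold (percentile 96.5 of all genes tested for its SD on the log2 scale) and MFAP4 over 5.94-fold (SD 1.18, percentile 93.5). FBLN2 varied least, over 1.60-fold (SD 0.26, percentile 46.8), beside a median SD of 0.28 over all genes. With IL-1β the spread of ELN reached 71.6-fold between lines 3 and 4, and that of MFAP5 went from 2.14-fold to 10.9-fold.

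Most tenocyte markers tested were lower beside these genes. Of 11 tenocyte markers listed, 9 were tested in the first batch and 7 were DE and lower with IL-1β (SCX, MKX, TNC, COMP, THBS4, COL1A1 and COL1A2). DCN, the gene of the collagen-binding proteoglycan decorin, was at 48987, 44076, 59314, 93120 and 60475 in controls and at 67408, 72301, 118778, 132486 and 117019 with IL-1β. Each of the 5 lines had more DCN with IL-1β than in its control, and the change was 0.73 on the log2 scale (adjusted p = 0.0626). FMOD, for fibromodulin, was at −2.03 (adjusted p = 0.176), and TNMD was too low to be tested. Summed over the 10 listed markers that had a row, DCN, FMOD and TNMD included, the level was 1093250 to 1847030 in controls and 428053 to 859286 with IL-1β. That sum mostly follows COL1A1 and COL1A2, at 582578 and 630587 in the control of line 1. Of 6 mural or smooth muscle markers, 4 were DE and lower (RGS5, NOTCH3, CSPG4 and DES), with sums of 20351 to 52311 in controls and 5709 to 11925 with IL-1β, and none of the 6 was under 10. Of 4 chondrocyte markers, ACAN and SOX9 were DE and lower, MATN3 was DE and higher and COL2A1 was under 10, with sums of 7416 to 42961 and 100.0 to 1153. Of 8 leukocyte markers, CD68 was DE and higher and 5 were under 10 in every library, with sums of 58.3 to 2076 and 311 to 3713. Of 4 epithelial markers, CDH1 was DE and lower, with sums of 1415 to 3915 and 31.4 to 546. The control sums were nearly all CDH1, since EPCAM, KRT18 and KRT8 were under 10 in every first-batch control. Endothelial sums were 22.8 to 50.2 and 17.5 to 91.0, with no marker DE, and no skeletal muscle marker was tested. The part of any of these cell types in the changes of the elastic fibre genes was not tested.

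In the second batch, IL-1β libraries were again lower than their own controls for 7 of 10 genes in all 3 lines, against 18.9% of all genes tested, but none of the 10 was DE in the fit without the block. ELN and FBLN1 showed the largest changes, −3.84 and −4.08 on the log2 scale beside −5.37 and −4.24 in the first batch, and EFEMP1 again had a positive change. The limma fit without a block called 0 of the 10 genes, and 0.341% of 16705 genes tested. At an unadjusted p under 0.05 there were 3 genes, ELN, FBLN1 and FBLN2, all lower, against 5.6% of all genes in that direction. When the line was added as a block, ELN (adjusted p = 0.0339) and MFAP4 (adjusted p = 0.0490) were DE and lower, against 2.59% of all genes. FBLN5 (adjusted p = 0.0501) and FBLN1 (adjusted p = 0.0518) lay just outside, with FBLN5 resting on a few reads in lines 7 and 8. Leaving out line 6 made ELN alone of the 10 genes DE, at −4.44 (adjusted p = 0.0348). The control and IL-1β libraries did not overlap for ELN, FBLN1 and FBLN2, 3 of 10 genes against 7.61% of all genes tested that were lower without overlap.

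ELN was at 1079, 746 and 431 in the controls of lines 6, 7 and 8, at 172, 15.4 and 40.9 with IL-1β, and at 595, 15.2 and 34.3 with IL-1β + IL1Ra. Line 6 with IL1Ra lay near its control, whereas lines 7 and 8 stayed at the level of IL-1β alone. The log2-fold change against control was −3.84 with IL-1β (SE 1.34, adjusted p = 0.312) and −3.33 with IL-1β + IL1Ra (SE 1.34, adjusted p = 0.834). With the block the SE was 0.77 for both, and the adjusted p was 0.0339 and 0.155.

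FBLN1 was at 19367, 8253 and 24060 in controls, at 1751, 618 and 728 with IL-1β, and at 24454, 282 and 1327 with IL-1β + IL1Ra. The IL1Ra library was above control in line 6 and under IL-1β alone in line 7. The change with IL-1β was −4.08 (SE 1.39, adjusted p = 0.302), and with IL-1β + IL1Ra it was −2.90 (SE 1.39, adjusted p = 0.921). With the block the SE was 0.96 for both, and the adjusted p was 0.0518 and 0.26.

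FBLN2 was at 22158, 30080 and 21475 in controls, at 3390, 17871 and 11071 with IL-1β, and at 12971, 13728 and 14929 with IL-1β + IL1Ra. It was the single gene of the 10 whose IL1Ra libraries did not overlap control, all lower, against 5.96% of all genes tested, and they were also its tightest group (1.15-fold). Its changes were −1.47 with IL-1β (SE 0.53, adjusted p = 0.332) and −0.81 with IL-1β + IL1Ra (SE 0.53, adjusted p = 1). With the block the SE was 0.44 for both, and the adjusted p was 0.101 and 0.494.

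FBLN5 was at 285, 10.7 and 64.1 in controls, at 41.0, 1.16 and 0 with IL-1β, and at 167, 0 and 3.13 with IL-1β + IL1Ra. In lines 7 and 8 the treated values are at or near 3 counts or less, so no fold is given for those lines. EFEMP2 was at 21250, 8181 and 4381 in controls, at 9058, 6499 and 4251 with IL-1β, and at 18780, 3355 and 4794 with IL-1β + IL1Ra. Line 8 barely moved for EFEMP2 in any condition, and the change of EFEMP2 with IL-1β over the 3 lines was −0.54 (SE 0.74, adjusted p = 0.88). With the block the SE was 0.37 and the adjusted p was 0.472.

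EFEMP1 was at 397, 78.4 and 167 in controls, at 118, 664 and 960 with IL-1β, and at 255, 86.9 and 512 with IL-1β + IL1Ra. Its IL-1β library was higher than control in lines 7 and 8, to 847% of control in line 7, and lower in line 6. The change of 1.28 with IL-1β (SE 0.96, 95% confidence interval −0.92 to 3.49, adjusted p = 0.72) did not pass the test.

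MFAP4 was at 1776, 116 and 204 in controls, at 262, 11.05 and 75.3 with IL-1β, and at 2721, 25.1 and 312 with IL-1β + IL1Ra. With IL1Ra, lines 6 and 8 were above their controls and line 7 was not. MFAP5 was at 4304, 1255 and 54.0 in controls, at 3314, 80.6 and 11.1 with IL-1β, and at 3053, 21.3 and 4.41 with IL-1β + IL1Ra. It was lower with IL1Ra than with IL-1β alone in 3 of 3 lines. Over the 3 lines the change with IL-1β was −2.49 for MFAP4 (SE 1.83, adjusted p = 0.71, or SE 0.57 and adjusted p = 0.049 with the block). For MFAP5 it was −2.17 (SE 2.85, adjusted p = 0.87, or SE 0.84 and adjusted p = 0.185 with the block).

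FBN1 was at 48186, 27324 and 18256 in controls, at 29608, 15208 and 28256 with IL-1β, and at 42963, 19874 and 29600 with IL-1β + IL1Ra. It was lower with IL-1β in lines 6 and 7 and higher in line 8. FBN2 was at 30.9, 1923 and 871 in controls, at 37.9, 717 and 510 with IL-1β, and at 22.5, 169 and 587 with IL-1β + IL1Ra, so line 6 held little of it in any condition. Changes with IL-1β were −0.31 for FBN1 (SE 0.46, adjusted p = 0.892). For FBN2 the change was −0.64 (SE 1.83, adjusted p = 0.953).

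**Figure D2:**
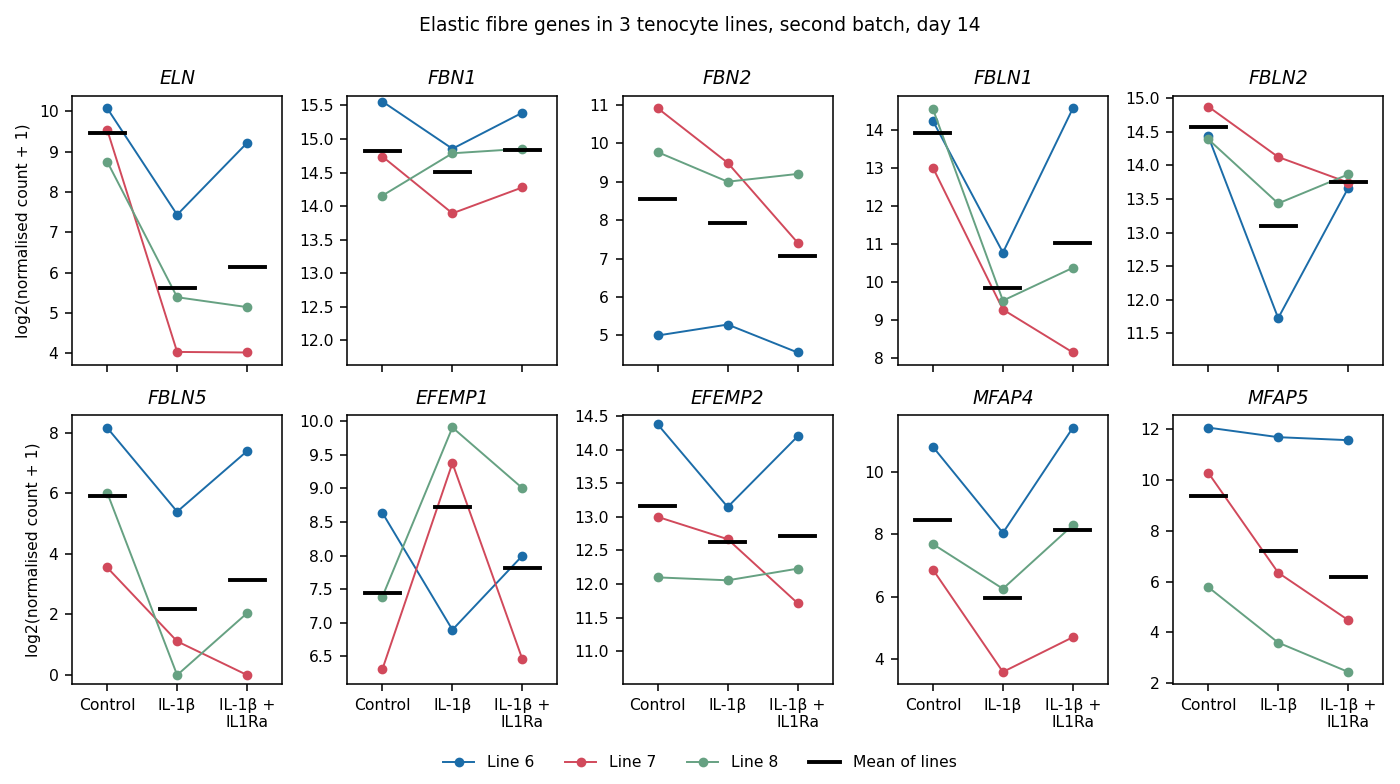
Log2(normalised count + 1) of each gene in the 3 second-batch lines (y axis, scaled separately for each gene), in control, IL-1β and IL-1β + IL1Ra libraries (x axis), with a coloured line joining the libraries of 1 tenocyte line and a black bar at the mean of 3 lines. For ELN, FBLN1, FBLN5 and MFAP4, line 6 returns near or above its control with IL1Ra and line 7 does not.

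The spread among the 3 second-batch controls was wide for most of the genes. MFAP5 spread over 79.7-fold between lines 6 and 8 (SD 3.24 on the log2 scale, percentile 98.3 of all genes tested), FBN2 over 62.1-fold between lines 7 and 6, FBLN5 over 26.6-fold and MFAP4 over 15.3-fold. FBLN2 spread over 1.401-fold (percentile 37.1). Tenocyte markers differed between the same lines: in controls of lines 6, 7 and 8, SCX was at 4720, 266 and 105, MKX, another transcription factor of tendon, at 4059, 151 and 11.5, and COMP, a tendon matrix protein, at 51392, 1069 and 131. First-batch controls held 822 to 2110 of SCX. The summed tenocyte markers of second-batch controls ranged from 276760 to 912751. With IL-1β, 0 of the 9 tenocyte markers tested in this batch were DE, beside 0.341% of all genes tested. COL1A1 was lower with IL-1β than in control in lines 6 and 7, from 332642 to 84945 and from 221346 to 97817. In line 8 it was higher, from 87792 to 131132. Skeletal muscle markers were highest in line 8, where in the control, IL-1β and IL-1β + IL1Ra libraries ACTA1 was at 209, 73.6 and 67.1 and MYOG at 80.4, 13.5 and 18.9. The sum of that list in line 8 was 345, 109 and 98.7, against 26.7, 5.23 and 5.14 in line 6 and 0, 1.18 and 1.03 in line 7. The part of these differences in the results on lines 7 and 8 was not tested.

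Across the 8 lines of both batches, each set against its own control, ELN, FBLN1, FBLN2, FBLN5, EFEMP2, MFAP4 and MFAP5 were lower with IL-1β in 8 of 8. FBN1 was lower in 7 of 8 and FBN2 in 6 of 8, while EFEMP1 was higher in 6 of 8. FBLN1 had the most even large change, with 2.49% to 11.2% of the control level left in every line. ELN had 0.642% to 15.9% left, MFAP4 2.95% to 36.8%, and MFAP5 2.07% to 77.0%, with line 6 the highest for MFAP5. FBLN2 had 15.3% left in line 6 and 59.4% in line 7. EFEMP2 kept 28.1% to 97.0%. The change of EFEMP1 was above that of EFEMP2 in 7 of 8 lines and under it in line 6, by −0.51 to 3.40 log2 units. These counts pool batches that were normalised separately and are descriptions with no test.

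**Figure D3:**
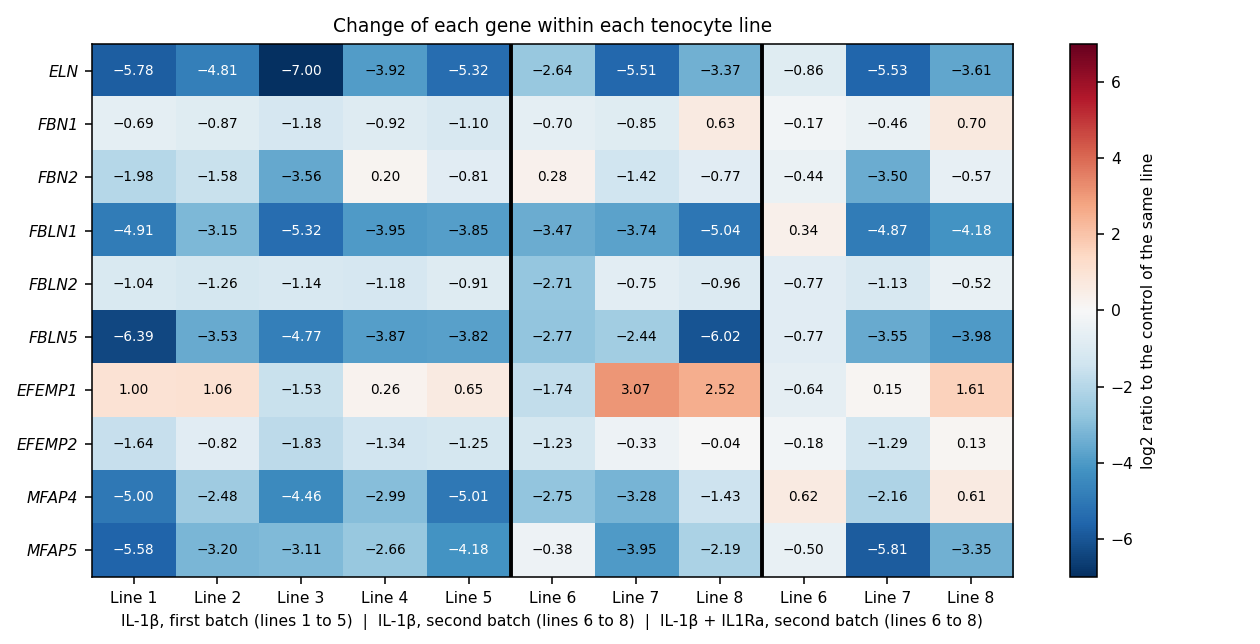
Log2 ratio of each treated library to the control of the same tenocyte line, on the log2(normalised count + 1) scale, for 10 genes (rows) and lines 1 to 8 (columns), with IL-1β in the first and second batch and IL-1β + IL1Ra in the second batch in separate blocks. Blue cells are lower and red cells higher than control. The FBLN5 ratios of lines 7 and 8 depend on the added 1 count. ELN and FBLN1 are blue under IL-1β in all 8 lines, EFEMP1 is red in 6, and under IL-1β + IL1Ra line 6 lies within 1 log2 unit of control for 10 of 10 genes and line 7 is blue for 9 of 10.

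With IL1Ra added to IL-1β, 0 of the 10 genes were DE against control and 0 against IL-1β alone (limma, with and without the block). Against control, ELN alone had an unadjusted p under 0.05, beside 2.92% of all genes in its direction, and 0.012% of all genes were DE (0.251% with the block). Against IL-1β alone, no member had an unadjusted p under 0.05, beside 2.78% of all genes, and 0% of all genes were DE (0.00599% with the block). Lower than control in every line were 5 of 10 genes (ELN, FBN2, FBLN2, FBLN5 and MFAP5), against 19% of all genes tested. The difference of MFAP4 between IL-1β + IL1Ra and control was −0.31 without the block (95% confidence interval −4.50 to 3.87, adjusted p = 1), and its SE was 0.57 with the block (adjusted p = 0.881).

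The direction of the IL1Ra libraries differed between the lines, each of which had 1 library per condition, so the counts within a line are descriptions with no test. IL-1β + IL1Ra was above IL-1β alone for 8 of 10 genes in line 6, for 2 of 10 in line 7 and for 7 of 10 in line 8. Over all genes tested these shares were 50.3%, 48.6% and 49.3%. In line 6, 10 of 10 genes lay within 1 log2 unit of control with IL-1β + IL1Ra, and 3 of 10 with IL-1β alone, beside 85.4% and 74.5% of all genes tested. In line 7 the counts were 2 and 3, beside 79.3% and 75.3%. In line 8 they were 5 and 4, beside 83.8% and 78.7%. For the 7 genes DE in the first batch, which used other lines, the mean log2 ratio to control in line 6 was −2.28 with IL-1β and −0.30 with IL-1β + IL1Ra. It was −2.86 and −3.48 in line 7, and −2.72 and −2.13 in line 8. Without FBLN5, left out after seeing that its treated values were near 0 in lines 7 and 8, the means over the remaining 6 genes were −2.20 and −0.23 in line 6, −2.93 and −3.46 in line 7, and −2.17 and −1.82 in line 8. Over the 1122 genes DE and lower in the first batch and tested in the second, the same means were −1.87 and −0.57 in line 6, −1.62 and −1.44 in line 7, and −1.31 and −0.83 in line 8. Each pair of ratios shares its control library.

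Between IL-1β and IL-1β + IL1Ra, the genes with the same direction in 3 of 3 lines were MFAP4 and FBN1, lower with IL-1β alone, and MFAP5, higher with IL-1β alone. These are 3 of 10 genes, and 32.4% of all genes tested had 1 direction in all 3 lines. The differences, IL-1β minus IL-1β + IL1Ra, were −2.17 for MFAP4 (SE 1.83, adjusted p = 1, or SE 0.57 and adjusted p = 0.338 with the block), −0.33 for FBN1 (SE 0.46, adjusted p = 1) and 1.05 for MFAP5 (SE 2.85, adjusted p = 1). The difference for ELN was −0.51 (95% confidence interval −3.57 to 2.56 without the block), and without line 6 it was 0.13. That for FBLN1 was −1.18 (95% confidence interval −4.37 to 2.01 without the block), and without line 6 it was also 0.13. With the block the SE was 0.77 for ELN (adjusted p = 0.868) and 0.96 for FBLN1 (adjusted p = 0.771).

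**Figure D4:**
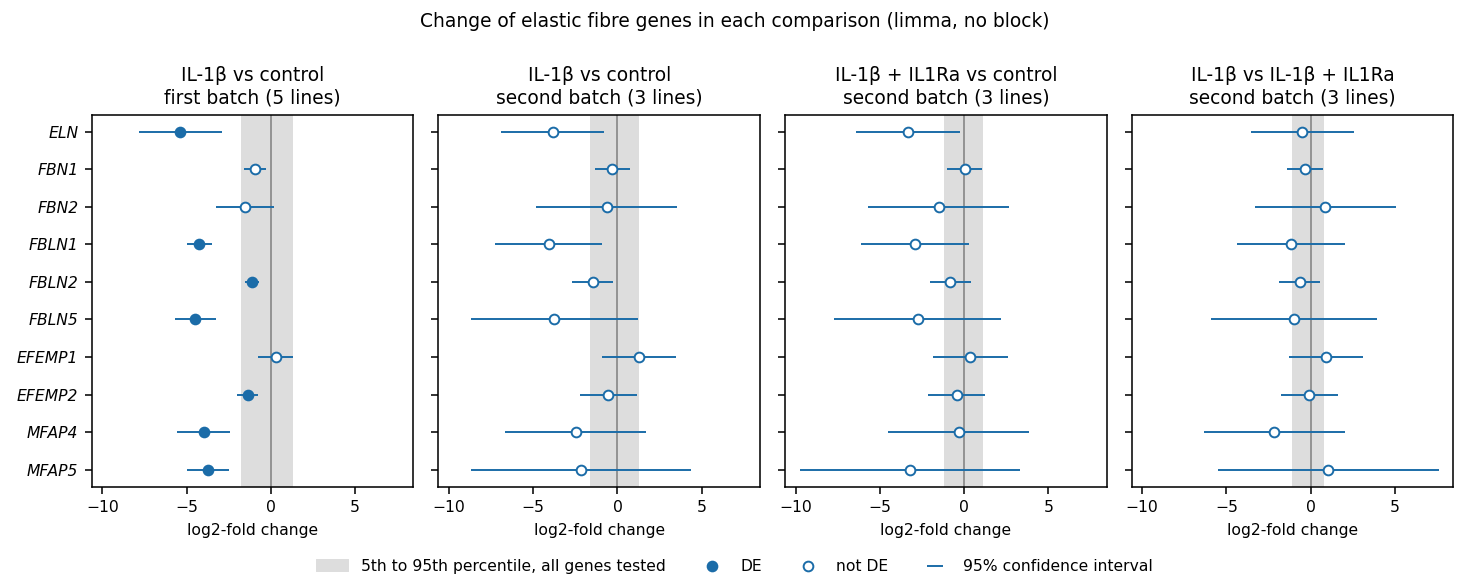
Log2-fold change (x axis) of each gene (rows) in the 4 comparisons, with 95% confidence intervals from limma without a block, filled points for DE genes and open points for the others, and a grey band from the 5th to the 95th percentile of all genes tested. In the first batch 7 points are filled, of which 5 lie left of the band, and in the second batch the intervals are wider and no point is filled.

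The genes that build, cross-link, degrade or bind elastic fibres and microfibrils were followed in 4 lists with 38 genes, of which 35 were tested in the first batch. There, 11 were DE and lower and 6 DE and higher, with a median log2-fold change of −0.35, beside 7.9% DE and lower, 4.91% DE and higher and a median of −0.0034 over all genes tested. Lower were 6 of 8 cross-linking and interface genes, whereas 4 of 6 tested proteases were higher. The 4 lists were also chosen with earlier results of these data known, so these counts are descriptions.

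Among microfibril partners, 4 of 12 tested were DE and lower and 1 higher. LTBP2, a microfibril protein of the family named latent TGF-β binding proteins, was at 18778, 18799, 43691, 22151 and 25664 in controls and 1850, 2744, 6869, 3746 and 1880 with IL-1β. TGF-β binding was not measured. It fell by 3.02 (SE 0.37, adjusted p = 0.000335). ADAMTSL2, a secreted protein that binds fibrillin-1, was at 94.3, 47.7, 42.6, 73.5 and 93.9 in controls and 3.53, 2.11, 2.08, 5.63 and 3.84 with IL-1β. It fell by 3.99 (SE 0.36, adjusted p = 7.56e-05), a size that depends on the added 1 count, since its IL-1β values were 2.08 to 5.63. LTBP4, which helps place elastin on microfibrils together with fibulins, fell by 2.38 (adjusted p = 0.018), and FBLN7 by 2.87 (adjusted p = 0.017). ADAMTSL4, which promotes fibrillin-1 microfibrils, rose by 1.09 (adjusted p = 0.0026). MFAP2, the relative of MFAP5, was at −0.35 (adjusted p = 0.0687), and FBN3 was at 0 in every library.

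Lysyl oxidases oxidise lysines of elastin and collagen so that they cross-link. LOX was at 7078, 8375, 19410, 20727 and 15718 in controls and 936, 2645, 2236, 6415 and 3433 with IL-1β, and fell by 2.32 (SE 0.48, adjusted p = 0.00586). LOXL2 fell by 3.35 and LOXL4 by 3.43 (adjusted p = 0.00122 and 0.00151), and LOXL1, which is needed for elastic fibre renewal, by 1.17 (adjusted p = 0.00158). The groups did not overlap for LOX. EMILIN2 and EMILIN3, elastin-interface glycoproteins, fell by 2.65 and 1.41 (adjusted p = 0.00365 and 0.0294). LOXL3 (−0.35) and EMILIN1 (0.37) did not pass the test.

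Of the enzymes able to cut elastin, MMP12, the macrophage elastase, rose by 3.54 (SE 0.88, adjusted p = 0.0136), from 1.10 to 76.4 in controls to 142 to 370 with IL-1β. The size of that rise depends on the added 1 count, since the lowest control was at 1.10. The gelatinases MMP2 and MMP9 rose by 1.20 and 1.54 (adjusted p = 0.00508 and 0.000714), and the cathepsin CTSS by 1.98 (adjusted p = 0.000987). CTSL, another cathepsin, fell by 2.29 (adjusted p = 0.00682), while CTSK was at 0.57 (adjusted p = 0.0637). ELANE and MMP7 were too low to be tested. Of 9 receptor and elastin-binding genes, ITGB8, an integrin chain that binds latent TGF-β, was the single DE gene, and it rose by 3.62 (SE 0.36, adjusted p = 0.000136), from 314 to 581 in controls to 3185 to 13434 with IL-1β.

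In the second batch 34 of these 38 genes were tested. ITGB8 was DE with IL-1β, at 219, 223 and 315 in controls and 3305, 1645 and 8046 with IL-1β, and rose by 3.82 (SE 0.56, adjusted p = 0.0431). With IL-1β + IL1Ra it was at 926, 2028 and 2239, above every control. Its call was lost under scaling to equal totals, without the variance trend, with the 2 conditions fitted alone, and without line 7 or line 8. The other 33 were not DE, and 12 of the 34 had an unadjusted p under 0.05, beside 11.4% of all genes tested. With the block, LTBP2 (adjusted p = 0.0385) and ADAMTSL2 (adjusted p = 0.0497) were DE and lower, and ITGB8 and CTSK (adjusted p = 0.0369) were DE and higher, 4 of 34 genes beside 5.18% of all genes in either direction. LOX differed between lines: with IL-1β it was lower than control in lines 6 and 7, from 29026 to 3907 and from 3760 to 3222, and higher in line 8, from 2015 to 6782. With IL1Ra, 0 of the 34 were DE against control (4 at an unadjusted p under 0.05, beside 5.67% of all genes) and 0 against IL-1β alone (0 at an unadjusted p under 0.05, beside 2.78%), with or without the block.

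**Figure D5:**
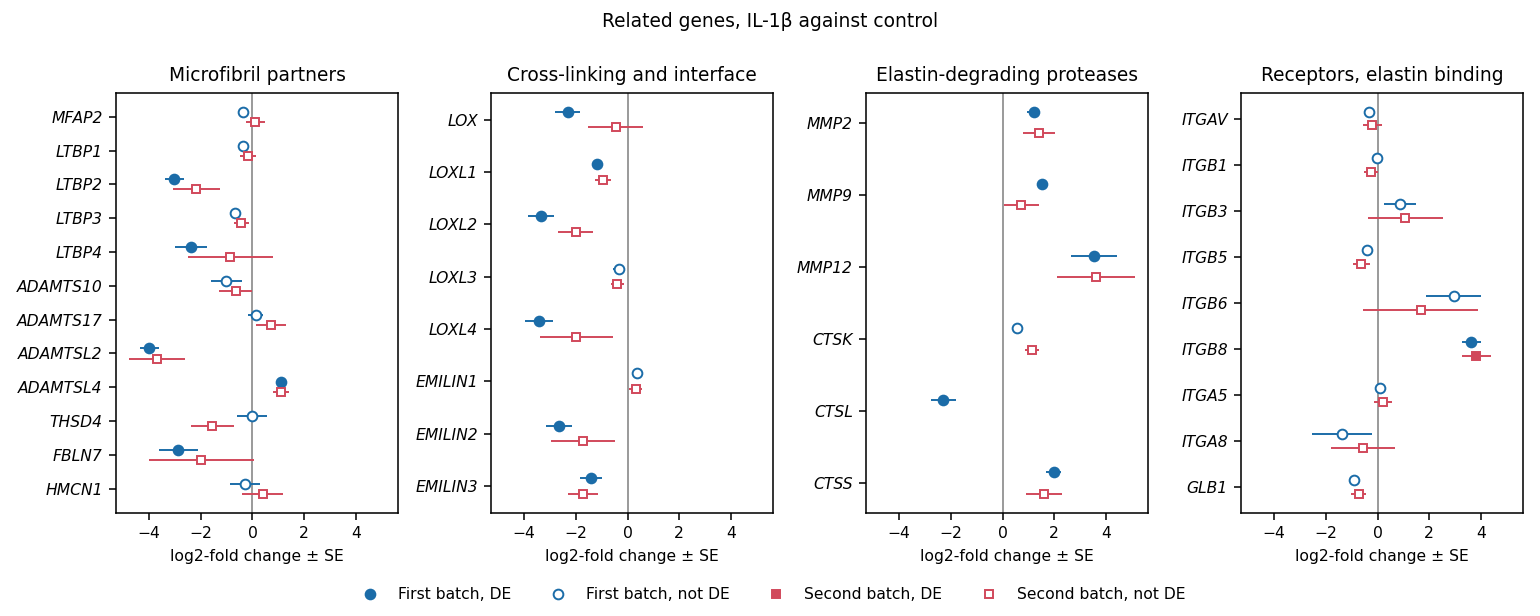
Log2-fold change ± SE (x axis) of related genes (rows) with IL-1β against control, in 4 panels by role, with blue circles for the first batch and red squares for the second and filled symbols for DE genes. In the first batch, filled symbols lie left of 0 for 6 lysyl oxidase and EMILIN genes and right of 0 for MMP2, MMP9, MMP12 and CTSS, and in the second batch ITGB8 alone is filled.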

How the data were processed

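The samples were 19 RNA sequencing libraries (TruSeq stranded mRNA, NovaSeq6000) of equine tenocytes. The signal values were deposited as normalised counts: the authors quantified reads against the EquCab3.0 transcriptome (Salmon), collapsed transcripts to genes (tximport) and normalised each batch with DESeq2 1.36 in R 4.2.1. Each batch is a separate table, so tests stayed within a batch. Between 64.0% and 77.3% of values under 20 lay within 0.1 of a whole read, too few to recover counts, and count models were therefore not used.

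Genes reaching 10 normalised counts in 5 libraries of the first batch or 3 of the second were fitted on log2(count + 1) with limma 3.58.1 in R 4.3.3 (lmFit, eBayes with trend). The p-values were adjusted over the 14719 and 16705 genes fitted (Benjamini-Hochberg). The 3 conditions of the second batch shared 1 fit. The added 1 count understates changes of low genes. The fits were tested on simulated data.

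Libraries of a line come from 1 donor, so lines pair them. Deviations from condition means had r of 0.35 to 0.58 over 5 same-line pairs of the first batch, and 0.54 to 0.79 over 9 such pairs of the second. Between lines r was −0.36 to 0.29 and −0.62 to 0.25. The design was fitted without the block, and the block is an alternative. Without the block, the p-values measure the spread between donors within a batch. With the block, they measure how far the change within a line varied between donors.

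The 10 members were all named, and of the 38 related genes those DE in a batch. Members, related genes and markers were chosen with earlier results of these data known. Other alternatives were pseudocounts of 0.5 and 5, no filter and a minimum of 50, upper-quartile and total scaling, no variance trend, the adjusted p alone, 2 conditions alone, and leaving out each line. Every column was mapped to a sample (0 unmapped) and 0 pairs of libraries were identical. Sequences and coordinates were not used here, since the reference at hand was a gene table of another assembly. Columns of test results were not used.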

Additional observations from a re-analysis of the deposited data

Results flagged for a closer look

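In the first batch, 3 of 20 groups of 5 libraries (10 genes in control and in IL-1β) held a library far from the others by Dixon's ratio on the log2 scale, the gap to the nearest library over the range of the group, and chance gives about 1 in 20 groups. MFAP5 was high in the control of line 3, at 8608 normalised counts (ratio 0.881). FBN2 was low in the IL-1β library of line 3, at 60.8 (ratio 0.731). EFEMP2 was low in the IL-1β library of line 1, at 5357 (ratio 0.754). Without line 3, MFAP5 stayed DE and lower, and FBN2 stayed lower and not DE. Without line 1, EFEMP2 stayed DE and lower. No gene moved one way in every line of the first batch and the other way in every line of the second.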

How the results depend on the processing

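The count of the 10 genes DE equalled the reported one under 47 of 53 alternatives. In the first batch it was 7, with 8 under the adjusted p alone and under the block on the line, 6 with at least 50 counts, and 6 to 7 when each line was left out; without line 5, and with at least 50 counts, FBLN5 did not pass the filter. In the second batch, IL-1β against control, it was 0, with 2 under the block and 0 to 1 when each line was left out (1 without line 6). Both comparisons with IL1Ra gave 0 throughout. Without the block, 0.012% of all genes tested were DE there against control and 0% against IL-1β alone, so these counts had little room to change. Single log2-fold changes kept their direction and call in 127 of 128 values of the first batch, 116 of 119 of the second with IL-1β, 115 of 119 for IL-1β + IL1Ra against control and 114 of 118 for IL-1β against IL-1β + IL1Ra, and the block changed no call other than those of FBN2 (first batch), ELN and MFAP4. For IL-1β + IL1Ra against control, FBN1 reversed under total scaling (−0.0573), and leaving out each line gave −0.31 (without line 8) to 0.27 for FBN1, −0.25 (without line 8) to 0.88 for EFEMP1 and −0.78 to 0.61 (without line 7) for MFAP4. For IL-1β against IL-1β + IL1Ra, leaving out each line gave −0.89 to 0.13 for ELN, −2.33 to 0.13 for FBLN1 and −0.61 to 0.39 for EFEMP2, each positive without line 6, and −0.0999 (without line 7) to 1.91 for EFEMP1. The cause was not tested.

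Of the 38 related genes, 17 were DE in the first batch, and 13 to 18 when each line was left out. In the second batch with IL-1β 1 was DE, with 4 under the block, 0 under total scaling, without the variance trend and with 2 conditions alone, and 0 to 3 when each line was left out. With IL-1β + IL1Ra against control it was 0, and 0 to 1 when each line was left out.

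Over all genes of the second batch with IL-1β, 57 were DE, 865 with the block, 34 without the trend or with 2 conditions alone, 339 without line 6 and 0 without line 7 or 8. With IL-1β + IL1Ra against control these counts were 2, 42, 3, 0, 61 and 0, where 3 is without the trend and 0 with 2 conditions alone. Against IL-1β alone they were 0, 1 with the block and 10 without line 6. In the first batch 1885 genes were DE, 4078 by the adjusted p alone and 1251 without line 5. Total scaling shifted the median of all genes to −0.19 with IL-1β in the second batch and to −0.11 for IL-1β against IL-1β + IL1Ra. In the second batch FBLN5 rests on a few reads in lines 7 and 8.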
